A study of Mus musculus with 12 samples.

Results

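The kinases and ubiquitin enzymes that act on clock proteins were examined as a group of 7 genes, chosen by name: the kinases Csnk1d, Csnk1e, Csnk1a1 and Gsk3b, the F-box proteins Btrc and Fbxw11, and the deubiquitinase Usp2. All 7 were found among the 20069 genes of the liver RNA-Seq table. Poly(A) RNA had been sequenced from livers of C57BL/6 mice aged 3 to 6 months, kept in 12 hr of light and 12 hr of darkness. The 12 samples came from 6 time points, every 4 hr from ZT2 to ZT22 (hours after lights on), with 1 sample per time point in each of 2 series. The mice were given no other treatment in the labels, and there was no mutant or control group, so each comparison is between times of day.

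Clock proteins such as PER are made, phosphorylated and destroyed in the course of a day. Casein kinases phosphorylate PER, which is then bound by the F-box proteins Btrc and Fbxw11 and tagged with ubiquitin by the SCF ligase for degradation by the proteasome. Gsk3b is a kinase with several clock proteins among its substrates, and deubiquitinases such as Usp2 remove ubiquitin from their targets. Most of this control is exerted on proteins, whereas the values here are RNA levels only.

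Expression is given as mean exon coverage in reads per base pair (rpbp), a level per length. The length is that of the joined exons of all isoforms, so exons not used in liver lower the value of a gene, and this was not tested. A gene entered the rhythm tests if at least 1 of its 12 values was above 8 rpbp, which kept 10198 genes. Of the 7 genes, 6 passed. Csnk1e was below this minimum in all 12 samples, and Btrc passed through 1 sample only. Rhythms were measured with F24, the share of the variance of the 12 values that lies in the 24 hr component. A gene was called rhythmic when the permutation p of F24 was below 0.05, F24 was above 0.45 and the amplitude, the highest value divided by the lowest, was above 1.5. Strong rhythms had an F24 above 0.6 and met a higher limit of amplitude too.

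The 5 hepatocyte markers of the list used here were all detected, with a summed level of 86645 to 168073 rpbp per sample. The summed level was 227 to 760 rpbp for 5 markers of Kupffer and other blood cells, 46.4 to 62.2 rpbp for 3 endothelial markers, 4.04 to 8.24 rpbp for 3 stellate cell markers and 0.80 to 4.36 rpbp for 2 bile duct markers. Of the 5 Kupffer and other blood cell markers, the globin gene Hbb-b1 had the widest range, 63.3 to 598 rpbp. None of the markers found in the table was at 0 in every sample. These are whole livers, in which fewer cells of a type and less RNA per cell cannot be told apart. The number of genes above 8 rpbp was between 8762 and 9108 per sample, and no sample stood apart by its median-of-ratios size factor, which ranged from 0.971 to 1.04.

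Of the 7 genes, only Usp2 was called rhythmic, and its rhythm was strong (Usp2 F24 = 0.917, exact permutation p = 2.73e-05). Among all 10198 expressed genes, 19.1% were called rhythmic and 7.89% strongly rhythmic. The 1 call among 7 genes, or among the 6 that were tested, is not above the 19.1%. The other 6 genes missed at least 1 of the criteria or the expression minimum. The median F24 of the 7 genes was 0.475, against 0.310 over all expressed genes, and their median amplitude was 1.48, against 1.64. The median coefficient of variation over the 12 samples was 11.7% for the 7 genes and 14.9% for all expressed genes. These medians of the 7 include Csnk1e, which is not among the expressed genes.

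**Figure D1:**
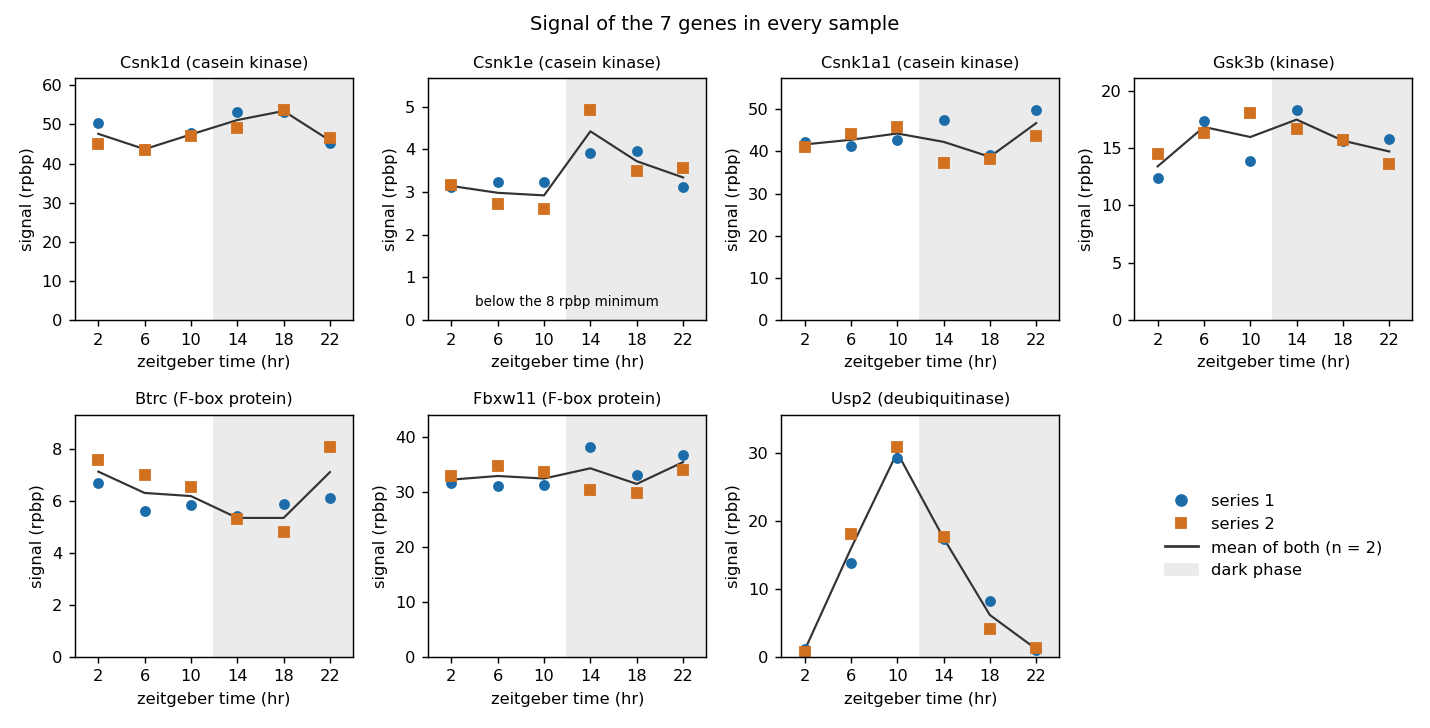
Signal of each gene in rpbp (vertical axis, starting at 0, with its own scale for each gene) against zeitgeber time in hr. Circles are series 1, squares are series 2, the line joins the means of both (n = 2), and the dark phase is shaded; Usp2 is at 0.92 rpbp at ZT2 and reaches 30.1 rpbp at ZT10, while the amplitudes of the other 6 genes are at most 1.89.

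Usp2 encodes a deubiquitinase for which clock proteins are among the reported targets. In mm9 it lies on the plus strand at chr9:43875104-43903708, and its annotation (GENCODE) has 3 coding transcripts that start at 3 different positions (43875104, 43877512 and 43893003). Coverage was summed over the exons of all isoforms, so these transcripts are not separated in the values below. RefSeq (GRCm38.p6) places the start of its listed window 17899 bases inside the Usp2 gene, at an internal start. That region is shown because Usp2 is the member with a strong rhythm, beside that of Fbxw11, the member with the lowest F24. Each sequence holds the 250 bases before the start in lower case and the first 30 transcribed bases in capitals, on the plus strand, at chr9:44084670-44084949 for Usp2 and chr11:32642305-32642584 for Fbxw11.
Usp2: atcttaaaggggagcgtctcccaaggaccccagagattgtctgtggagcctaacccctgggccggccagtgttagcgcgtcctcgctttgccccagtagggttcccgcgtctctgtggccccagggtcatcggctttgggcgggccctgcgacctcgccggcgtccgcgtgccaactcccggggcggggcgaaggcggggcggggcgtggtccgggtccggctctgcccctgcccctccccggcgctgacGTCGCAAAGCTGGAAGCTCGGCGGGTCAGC
Fbxw11: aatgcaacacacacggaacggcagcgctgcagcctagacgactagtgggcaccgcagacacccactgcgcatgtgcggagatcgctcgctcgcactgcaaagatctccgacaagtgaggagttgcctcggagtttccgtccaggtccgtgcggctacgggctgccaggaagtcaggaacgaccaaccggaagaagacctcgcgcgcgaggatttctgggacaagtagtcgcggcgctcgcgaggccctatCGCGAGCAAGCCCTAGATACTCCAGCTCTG
The G and C content was 71.1% in the Usp2 sequence and 61.8% in that of Fbxw11.

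RefSeq windows of 300 bases were at hand for Usp2, Fbxw11, Gsk3b and Csnk1e (4 of the 7 genes, 7 windows). They were searched on both strands for letters bound by clock factors and for the cyclic AMP response element. The E-box CACGTG is found in 7.15% of all 32851 windows and CACGTT, a variant of it, in 4.68%. The D-box letters TTATGTAA are in 0.938% of windows and TTACGTAA in 0.119%, AGGTCA, recognised by ROR and REV-ERB, is in 16.3%, and the cyclic AMP response element TGACGTCA is in 1.79%. None of these 6 was present in the windows of the 4 genes, which says only that these letters are not in these windows.

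Usp2 was lowest at ZT2, with 1.08 and 0.76 rpbp in series 1 and 2, and rose through ZT6, with 13.8 and 18.04 rpbp. It was highest at ZT10, with 29.2 and 31.0 rpbp. The level then fell over the dark phase, from 17.4 and 17.6 rpbp at ZT14 to 8.24 and 4.08 rpbp at ZT18 and 1.04 and 1.24 rpbp at ZT22. Values at ZT6, ZT10 and ZT14 were 13.8 to 31.0 rpbp, and the highest value at the other times was 8.24 rpbp. These times were grouped after the values were seen. Mean levels were 30.1 ± 1.22 rpbp (SD, n = 2) at ZT10 and 0.92 ± 0.226 rpbp (SD, n = 2) at ZT2, a 32.7-fold difference. The spread between the 2 series within a time point was 1.79 rpbp (pooled SD), and the range of the time-point means was 16.3 times that.

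The Benjamini-Hochberg adjusted p of the exact permutation test was 0.0084 for Usp2, and 5.8% of the expressed genes were below 0.05 by this measure. With limma, in which a 24 hr cosine and sine were fitted to log2(rpbp + 1), the fitted peak of Usp2 was 19.1-fold above its trough (95% region 9.61 to 37.8, adjusted p = 0.000259), and 8.61% of expressed genes passed. This fold is on the log2(rpbp + 1) scale, which understates changes at low levels: it was 35.9 (14 to 92.0) with a pseudocount of 0.1. In the limma F-test between the 6 time points, which assumes no shape, Usp2 also differed (adjusted p = 0.000171), as did 17.6% of expressed genes. No other of the 7 genes passed any of these 3 tests; without adjustment, the permutation p was below 0.05 in Csnk1d and the limma p for a 24 hr rhythm in Btrc, and both in Csnk1e when all genes were fitted. Without adjustment, 26.6% of expressed genes had a permutation p below 0.05 and 27.4% such a limma p. Of the 10198 expressed genes, 27 had a higher F24 than Usp2 and 136 a higher amplitude.

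The fitted peak of Usp2 was at 11.04 ± 0.896 hr in the limma fit (95% half-width) and at 10.5 hr from the untransformed values. Series 1 alone gave 10.9 hr and series 2 alone 10.2 hr. The F24 of Usp2 was 0.925 in series 1 and 0.930 in series 2, and in series 2 alone it was not called (exact permutation p = 0.0667, where 6 values allow no p below 0.0167). Hepatocyte markers moved in part at the same times: 3 of the 5 were called rhythmic (19.1% of expressed genes were), and the summed level of the 5 was 132111 to 168073 rpbp at ZT6, ZT10 and ZT14 and 86645 to 154684 rpbp at the other times. Alb made up 58.2% to 76.5% of this sum, and the means of Alb, Ttr, Cyp2e1 and Cps1 were higher at ZT6, ZT10 and ZT14 than at the other times. For Cyp2e1, which was called, they were 13085 ± 1623 and 9208 ± 1779 rpbp (SD, n = 6 each). Apoa1, which was not called, had the opposite order, with 11640 ± 2439 and 14172 ± 2973 rpbp (SD, n = 6 each). The part of these markers in the Usp2 values was not tested. Rnf26, on the opposite strand, shares 200 exon bases with Usp2 (4.56% of its exons) and was at 7.72 to 15.6 rpbp, and the counting did not separate strands.

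The expressed genes whose pattern was most like that of Usp2 were ranked by Pearson's r of log2(rpbp + 1) over the 12 samples, all genes being measured in the same libraries. The highest was C230093N12Rik (r = 0.978, peak at 10.5 hr). A transcript that the table lists without a gene symbol came next (r = 0.978, peak at 10.9 hr), followed by Wee1, a kinase of the cell cycle (r = 0.977, peak at 10.3 hr). Por, the reductase that passes electrons to cytochromes P450, had an r of 0.976 with a peak at 11.3 hr, and Mknk2, a kinase acting on the translation factor eIF4E, had an r of 0.967 with a peak at 10.4 hr. Their amplitudes differed, from 1.77 for the transcript without a symbol and 3.34 for C230093N12Rik to 5.02 for Por, 6.05 for Mknk2 and 15.9 for Wee1, all below the 40.7 of Usp2. In all, 88 expressed genes had an r above 0.9 with Usp2.

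Csnk1d, which encodes casein kinase 1 delta, a main kinase of PER proteins, was the most abundant of the 7 genes (48.2 ± 3.70 rpbp, SD over 12 samples). It lies on the minus strand at chr11:120819779-120852644 (mm9). The values of series 1 and 2 were 50.2 and 44.9 rpbp at ZT2, 43.8 and 43.6 at ZT6, 47.8 and 47.0 at ZT10, 53.2 and 49.0 at ZT14, 53.2 and 53.7 at ZT18, then 45.2 and 46.6 at ZT22. The highest mean was at ZT18 and the lowest at ZT6, and they differed by only 1.22-fold. The F24 of Csnk1d was 0.598, with an exact permutation p of 0.0239 and a peak at 16.5 hr, and its amplitude of 1.23 was below the 1.5 limit. After adjustment the permutation p was 0.132. The unadjusted p ranged from 0.0012 to 0.062 in permutation tests with each sample left out in turn. The limma fold of Csnk1d was 1.17 (95% region 1.00 to 1.37, adjusted p = 0.196), so that a rhythm above 1.37-fold lies outside the region. Slc16a3 on the opposite strand shares 831 exon bases with Csnk1d (14.2% of its exons) and was at 0.00 to 0.84 rpbp.

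Csnk1e, which encodes casein kinase 1 epsilon, the closest relative of the delta kinase, had the lowest level (3.42 ± 0.624 rpbp, SD over 12 samples). It lies on the minus strand at chr15:79248282-79274349 (mm9). Gm16059 on the opposite strand shares 267 exon bases with Csnk1e (4.17% of its exons) and has no values here. Series 1 and 2 gave 3.12 and 3.16 rpbp at ZT2, 3.24 and 2.72 at ZT6, 3.24 and 2.60 at ZT10, 3.92 and 4.92 at ZT14, 3.96 and 3.48 at ZT18, then 3.12 and 3.56 at ZT22. The 2 samples of ZT14 and the first of ZT18 were the highest, and the time-point means differed by 1.51-fold, from 2.92 rpbp at ZT10 to 4.42 rpbp at ZT14. Because all values were below 8 rpbp, Csnk1e was not tested with the expressed genes. When no minimum was set, Csnk1e met the criteria for a rhythm (F24 = 0.479, exact permutation p = 0.0368, amplitude 1.89, peak at 16.3 hr), as did 13.9% of the 20042 genes that could be tested. Its adjusted permutation p was then 0.248 and that of limma 0.238 (fold 1.29, 95% region 1.01 to 1.65), measures that 1.67% and 3.13% of all genes passed. The peaks of Csnk1e in series 1 and 2 alone were at 15.5 and 16.8 hr, and those of Csnk1d at 16.2 and 16.8 hr.

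Csnk1a1, the alpha casein kinase, also acts on PER and is best known from Wnt signalling. It lies on the plus strand at chr18:61714928-61749715 (mm9) and was at 42.7 ± 3.74 rpbp (SD over 12 samples). Series 1 and 2 gave 42.3 and 41.0 rpbp at ZT2, 41.3 and 44.2 at ZT6, 42.7 and 45.8 at ZT10, 47.4 and 37.2 at ZT14, 39.2 and 38.2 at ZT18, then 49.8 and 43.6 at ZT22. The 2 samples of ZT14 were further apart than the highest and the lowest time-point mean. The F24 of Csnk1a1 was 0.0381 (exact permutation p = 0.837), and its limma fold was 1.05 (95% region 1.00 to 1.31, adjusted p = 0.879). The peak hours fitted to series 1 and 2 alone, 19.6 and 5.40, were 9.82 hr apart.

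Gsk3b, the glycogen synthase kinase 3 beta gene, at chr16:38089087-38246170 (mm9, plus strand), was at 15.7 ± 1.83 rpbp (SD over 12 samples). Series 1 and 2 gave 12.4 and 14.4 rpbp at ZT2, 17.4 and 16.3 at ZT6, 13.8 and 18.1 at ZT10, 18.3 and 16.6 at ZT14, 15.6 and 15.7 at ZT18, then 15.8 and 13.6 at ZT22. The lowest mean was at ZT2 and the highest at ZT14, 1.30-fold above it. The F24 of Gsk3b was 0.386 (exact permutation p = 0.117, peak at 12.2 hr), with 0.235 in series 1 and 0.949 in series 2. Without the first sample of ZT10 it was 0.711 (permutation p = 0.0064). With any other single sample left out, it was 0.294 to 0.456 (permutation p = 0.0941 to 0.247). Gsk3b was called in none of these, and its amplitude over all 12 samples was 1.48, below the 1.5 limit. Its limma fold was 1.21 (95% region 1.00 to 1.52, adjusted p = 0.294).

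Btrc and Fbxw11 are paralogs, together known as β-TrCP, and each can act as the substrate receptor of the SCF ligase. Btrc, at chr19:45438224-45607831 (mm9, plus strand), was at 6.23 ± 0.972 rpbp (SD over 12 samples). Series 1 and 2 gave 6.68 and 7.56 rpbp at ZT2, 5.6 and 7.0 at ZT6, 5.84 and 6.52 at ZT10, 5.40 and 5.28 at ZT14, 5.88 and 4.80 at ZT18, then 6.12 and 8.08 at ZT22. The samples of ZT2 and ZT22 were all above 6 rpbp and those of ZT14 and ZT18 all below. The F24 of Btrc was 0.475, above the limit, and its amplitude 1.68, but its exact permutation p was 0.0582 (adjusted 0.202). It was called rhythmic when the first sample of ZT6 (p = 0.0272) or the second of ZT22 (p = 0.0349) was left out, in a permutation test of the 11 others. The second sample of ZT22 is its only one above 8 rpbp, so without it Btrc would not pass the minimum, which was applied to all 12 samples. The limma fold of Btrc was 1.28 (95% region 1.00 to 1.64, adjusted p = 0.175), with a peak at 2.23 hr.

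Fbxw11, at chr11:32542724-32646816 (mm9, plus strand), was at 33.1 ± 2.55 rpbp (SD over 12 samples). Series 1 and 2 gave 31.6 and 32.8 rpbp at ZT2, 31.1 and 34.7 at ZT6, 31.3 and 33.6 at ZT10, 38.2 and 30.4 at ZT14, 33.2 and 29.8 at ZT18, then 36.8 and 34.0 at ZT22. The time-point means differed by only 1.13-fold, and their range was 1.37 times the pooled SD within time points. The F24 of Fbxw11 was 0.0168 (exact permutation p = 0.924), and its limma fold was 1.03 (95% region 1.00 to 1.26, adjusted p = 0.961). The peaks of the 2 series alone were 10.9 hr apart.

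**Figure D2:**
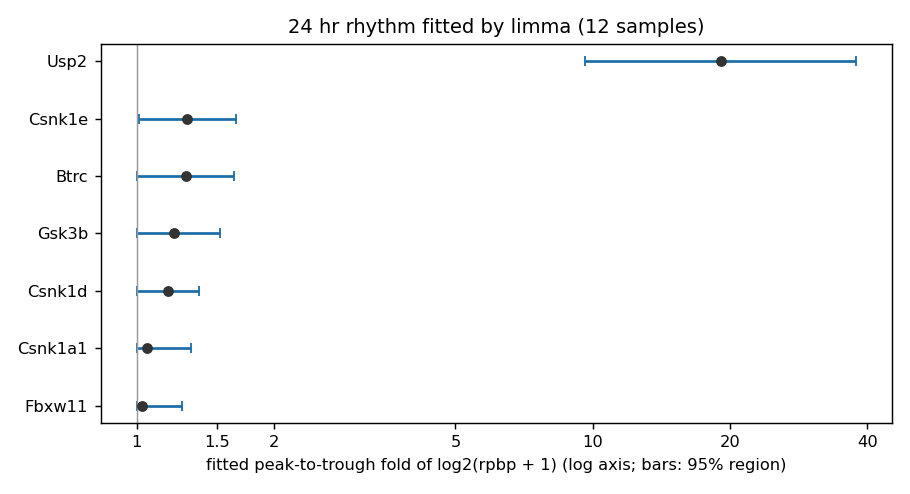
Fitted peak-to-trough fold of the 24 hr rhythm (horizontal log axis) for each gene, from limma on log2(rpbp + 1) in 12 samples, with the 95% region of both coefficients as bars. The region of Usp2 starts at 9.61, and those of the other 6 genes end at or below 1.65.

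The order of mean levels per joined exon length was Csnk1d, Csnk1a1, Fbxw11, Gsk3b, Usp2, Btrc and Csnk1e. The 6 neighbouring pairs were compared within samples by an exact sign-flip permutation test (two-sided), with Benjamini-Hochberg adjustment over the 6. Csnk1d was 1.13-fold above Csnk1a1 (10 of 12 samples, adjusted p = 0.0117), Csnk1a1 was 1.29-fold above Fbxw11 and Fbxw11 2.12-fold above Gsk3b (both 12 of 12 samples, adjusted p = 0.000977). Btrc was 1.83-fold above Csnk1e (12 of 12 samples, adjusted p = 0.000977). Usp2 had no fixed place: it was above Gsk3b in 4 samples, of ZT6, ZT10 and ZT14, and below Btrc in the 5 samples of ZT2 and ZT22 and the second of ZT18. Over all 12 samples Gsk3b exceeded Usp2 by 2.57-fold (geometric mean, 8 of 12 samples, adjusted p = 0.0498, a call that ended when any 1 of 8 single samples was left out), and Usp2 and Btrc did not differ beyond their spread (7 of 12 samples, adjusted p = 0.968).

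**Figure D3:**
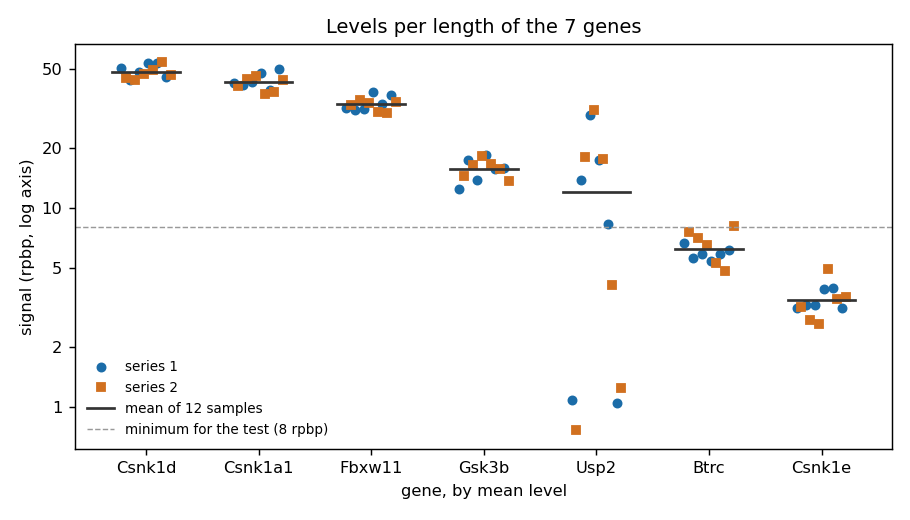
Signal in rpbp (vertical log axis) of each gene in the 12 samples, with genes ordered by mean level and the samples of a gene set from ZT2 on the left to ZT22 on the right. Horizontal lines are means and the dashed line is the 8 rpbp minimum; Csnk1e lies wholly below it, Btrc has 1 sample above it, and Usp2 spans 0.76 to 31.0 rpbp.

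The delta to epsilon and Btrc to Fbxw11 balances were followed as ratios within each sample. The Csnk1d/Csnk1e ratio had a median of 14.3 and ranged from 9.95 in the second sample of ZT14 to 18.1 in the second sample of ZT10. No rhythm was found in it (F24 = 0.178, exact permutation p = 0.443, adjusted over both ratios 0.443). The Btrc/Fbxw11 ratio had a median of 0.183, with a range of 0.141 to 0.237. Its means were highest at ZT2 (0.221 ± 0.0135, SD, n = 2) and lowest at ZT14 (0.158 ± 0.0231, SD, n = 2). The F24 of this ratio was 0.496 with an exact permutation p of 0.0477, which did not pass after adjustment over both ratios (0.0954). It passed when either sample of ZT22 was left out (adjusted p = 0.0386 and 0.0464). With any other single sample left out it did not pass (adjusted permutation p = 0.073 to 0.286). Neither did it in series 1 alone (0.533) or series 2 alone (0.333).

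**Figure D4:**
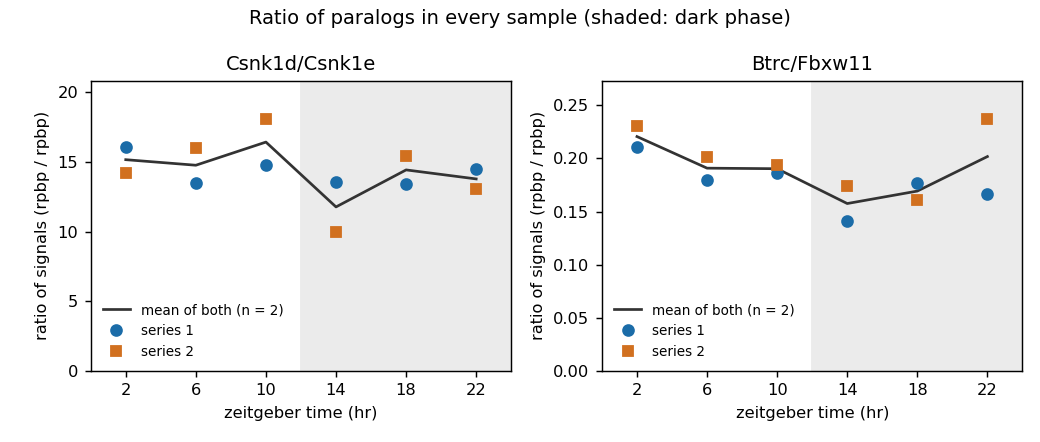
Ratio of signals within a sample (vertical axes start at 0) against zeitgeber time in hr, for Csnk1d over Csnk1e and Btrc over Fbxw11. Circles are series 1, squares are series 2 and the line joins their means (n = 2); the first ratio lies between 9.95 and 18.1 and the second between 0.141 and 0.237.

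The times of the 7 genes can be set beside those of clock proteins that are substrates of such enzymes. The RNA of Per1 peaked at 11.3 hr, 0.787 hr after that of Usp2, and that of Per2 at 12.2 hr, 1.69 hr after it. Cry2, which was not called rhythmic, had its fitted peak at 11.7 hr, and Cry1 peaked at 17.3 hr. The fitted peak of Csnk1d, which was not called rhythmic, was at 16.5 hr, and the differences from it were -5.20 hr for Per1, -4.30 hr for Per2, -4.82 hr for Cry2 and 0.779 hr for Cry1. Nr1d1, which encodes REV-ERBα, peaked at 5.33 hr, a difference of -5.20 hr from Usp2. Arntl, which encodes BMAL1, and its partner Clock peaked at 21.1 and 21.2 hr, 10.5 and 10.7 hr away from Usp2. These are phases of RNA, and no test was made of their differences.

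Other enzymes that act on clock proteins were examined as a list of 35 genes, all in the table. Of the 32 above the expression minimum, 2 were called rhythmic (6.25%, against 19.1% of all expressed genes), and 30 were not. Mapk3, an ERK kinase, was among 12 kinases tested, and rose to 49.1 ± 0.0849 rpbp (SD, n = 2) at ZT6 from 30.2 ± 2.35 rpbp at ZT14 (F24 = 0.520, exact permutation p = 0.0365, peak at 5.28 hr). Cul4a, a cullin scaffold of ubiquitin ligases, was among 7 other ligase genes tested, and rose to 119 ± 5.80 rpbp (SD, n = 2) at ZT10 from 72.6 ± 0.707 rpbp at ZT2 (F24 = 0.616, exact permutation p = 0.0123, peak at 12.3 hr). None of the 6 phosphatase genes, the 3 SCF core genes and the 4 other deubiquitinase genes (Usp7, Usp9x, Usp14 and Usp1) was called. The median amplitude of the 32 genes was 1.34, against 1.64 over all expressed genes.

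The adjusted permutation p was below 0.05 for 2 of the 32 genes of the list (against 5.8% of expressed genes), Csnk1g2 (0.0349) and Cul1 (0.0230), which encode a casein kinase of the gamma group and the scaffold of the SCF ligase, and both had amplitudes below 1.5 (1.33 and 1.36). None passed the limma test for a 24 hr rhythm, and without adjustment 6 of the 32 had a limma p below 0.05; of all expressed genes, 27.4% did, and 8.61% passed after adjustment. The permutation p without adjustment was below 0.05 in 6 of the 32, which are Csnk1g2, Cul1, Mapk3, Cul4a, Cdk5 and Usp9x, against 26.6% of expressed genes. The limma test between time points was passed by 4 genes, Csnk1g3, Mapk3, Siah2 and Cul4a (adjusted p = 0.0487, 0.0239, 0.0367 and 0.0280), against 17.6% of expressed genes. Except for Mapk3 and Cul4a, these genes were named after their values were seen. Cul4a was not called in series 2 alone. Mapk3 was not called with median-of-ratios size factors, nor in either series alone, nor when any 1 of 7 single samples was left out. Calls were few in a single series, at 2.8% of expressed genes in series 1 alone and 3.62% in series 2 alone.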

How the data were processed

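Poly(A) RNA-Seq of 12 mouse liver samples (6 time points in 2 series) was used. Per the labels and the study's methods, the authors extracted sequences with CASAVA 1.8, mapped them to mm9 with TopHat and kept unique matches. The deposited signal is the base coverage over all exons of a gene, strands joined, divided by exon length (rpbp) and scaled by the authors to 10000000 mapped sequences. It holds no read counts, so no counting error or count test is given, and depth per sample is not in the table. The deposited values have 2 decimals, and low levels are coarse. The deposited F24 scores, phases and p-values are the authors' own comparisons and were not used. The columns headed ZT20 were taken as ZT22, since the labels have no ZT20 sample. Columns of other samples numbered 0.

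Here the signal was multiplied by 4, to the scale of 40000000 on which the 8 rpbp minimum was set. The permutation p of F24 was exact, over all 623700 distinct orders of the 12 values (two-sided in phase, smallest p 1.6e-06). limma 3.58.1 in R 4.3.3 was fitted to log2(rpbp + 1) of all expressed genes, with Benjamini-Hochberg adjustment. For Csnk1e, both were run on all genes. The sign-flip test used 4096 patterns (smallest p 0.000488). Python 3.11.15 and numpy 2.4.6 were used, and the scripts were tested on simulated data.

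All 7 genes were described in every sample, the listed enzymes were named if called rhythmic, and the 5 genes most like each rhythmic member were named. The members and lists were chosen with earlier results of these data known. The labels do not say how many mice a sample holds, so p-values measure the spread between these samples. Gene positions are from GENCODE on mm9 (NCBIM37), and promoters are from RefSeq (GRCm38.p6). Alternatives were minimums of 16 rpbp or none, median-of-ratios size factors, F24 on log2(rpbp + 1) or log2(rpbp + 0.1), a limma pseudocount of 0.1, 10000 random orders, amplitudes from time-point means, a replicate block, and each series or sample left out.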

Additional observations from a re-analysis of the deposited data

How the results depend on the processing

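The call of Usp2 was kept under 21 of 22 alternatives, with F24 of 0.904 to 0.930. The exception was series 2 alone (exact permutation p = 0.0667; 720 orders, smallest p 0.0167). The members called rhythmic numbered 2 with no minimum (Csnk1e added) and 2 with a replicate block (Btrc added, exact permutation p = 0.0358), and 0 to 2 when a sample or series was left out. The enzymes of the list called rhythmic numbered 1 with median-of-ratios size factors and 1 with the replicate block, with Mapk3 lost in both. They numbered 0 to 2 when a sample or series was left out. The genes above the minimum were still those of all 12 samples when samples were left out; Btrc, called without the second sample of ZT22, has no other value above 8 rpbp. Cul4a was called in all of these but series 2 alone. Mapk3 was lost without the first sample of ZT6, ZT10, ZT14 or ZT22, or the second of ZT6, ZT14 or ZT18. Csnk1g3 was called without the first sample of ZT22 or the second of ZT14, and Prkaa2 without the second of ZT18. Of 6 neighbouring levels, 0 to 5 differed when a sample or series was left out, the 0 being series of 6 samples. Of 2 paralog ratios, 0 to 1 passed when a sample or series was left out. The counts by adjusted permutation p and by both limma tests were 1 under each alternative run. The series numbers did not pair the samples: the differences between series correlated at -0.153 to 0.206 between time points, 2 of 15 pairs were above 0.1, and the mean correlation with the other time points was above 0 for 4 of 6. Low levels, such as those of Csnk1e and of Usp2 at ZT2 and ZT22, are limited by depth, which the deposited table does not hold, and by the 0.04 rpbp step of the values.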

Other observations

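Csnk1a1 and Fbxw11, neither of which was called rhythmic, kept a nearly constant ratio over the 12 samples. The ratio was between 1.18 and 1.37 in each sample, and the SD of its log2 value was 0.0673. Among 10117 other genes detected in every sample, 8 had a smaller SD of the log2 ratio to Csnk1a1 and 1 had a smaller one to Fbxw11. The median such SD to Csnk1a1 was 0.242. Pearson's r of log2(rpbp + 1) was 0.844 over 12 samples that share their libraries. The pair was chosen after its values were seen. Both genes were lower in the second than in the first sample of ZT14 (37.2 against 47.4 rpbp for Csnk1a1 and 30.4 against 38.2 rpbp for Fbxw11), as were 63.5% of the expressed genes. The part of that sample in the pattern was not tested.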
